A study of Mus musculus with 4 samples.

Results

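Macrophage and monocyte transcripts were examined in preparations of splenic T cells. The genes were Adgre1, Csf1r, Cd68, Itgam, Gpnmb, Mmp12, Mmp13, Lyz2, Cd14 and Mrc1, 10 in all, and every array feature annotated to one of them was used. The annotation assigned 12 features to 8 of the genes, out of 33709 gene features for 19088 genes. Csf1r, the receptor for colony stimulating factor 1, and Cd68, a lysosomal glycoprotein, had no feature in it and are not analysed here. Of the 12 features, 10 from 7 genes lay outside stretches of the arrays that were taken as misread, as described under the processing. The single feature of Cd14 and the second feature of Itgam lay inside them. The genes were chosen with the difference between the genotypes in these same arrays known, so their differences are given as a description, with no test, and support nothing.

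The cells were CD4+CD25- T lymphocytes purified from the spleen of C57BL/6 mice and stimulated for 12 h with antibodies against CD3 and CD28, in all samples alike. One group came from db/db mice, which lack a working leptin receptor and become obese and diabetic, and the other from heterozygous db/+ mice, which keep a functional copy and are labelled wild type. A phenotype label calls the db/db mice leptin-deficient, whereas the series title names the receptor. There were 2 samples per group, and 3 mice were pooled for each of them. The series text speaks of 2 independent experiments, but the labels do not tie the pool numbers to them, and they give neither age nor sex. Each pool was read on 1 one-colour array, and the number of arrays limits the precision: an exact permutation test of 2 against 2 pools cannot go below p = 0.333.

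Tissue macrophages and their blood precursors, the monocytes, engulf particles and dying cells, degrade them in lysosomes and remodel the surrounding matrix with secreted proteases. In the spleen, red pulp macrophages clear aged red blood cells, and monocytes are held in reserve. T cells purified from spleen by selection can carry a remainder of such cells. Several of the genes here are shared with other myeloid cells: Itgam and Lyz2 are also transcribed in neutrophils, so none of them marks macrophages alone.

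The sequence before the start of transcription is shown for Mmp13, Gpnmb, Itgam and Lyz2, the genes with the clearest differences in either direction that had an entry, and for Lyz1, the neighbouring copy of Lyz2. The sequences are the 250 bases before the annotated start, 5′ to 3′ on the gene's strand, from RefSeq on GRCm38.p6. In Mmp13, Gpnmb and Itgam the capitals mark matches to any of 3 motifs searched on both strands: TGANTCA, bound by AP-1, GAGGAA, the core bound by the myeloid factor PU.1, and TCANNTGA, bound by MITF and its relatives. In the lysozyme pair the capitals mark the longest run that both share.
Mmp13, chr9:7272264-7272513, + strand: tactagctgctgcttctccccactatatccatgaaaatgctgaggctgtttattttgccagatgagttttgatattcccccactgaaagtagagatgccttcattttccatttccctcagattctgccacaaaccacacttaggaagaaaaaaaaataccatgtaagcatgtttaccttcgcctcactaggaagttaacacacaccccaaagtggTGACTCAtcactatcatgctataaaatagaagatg
Gpnmb, chr6:49036268-49036517, + strand: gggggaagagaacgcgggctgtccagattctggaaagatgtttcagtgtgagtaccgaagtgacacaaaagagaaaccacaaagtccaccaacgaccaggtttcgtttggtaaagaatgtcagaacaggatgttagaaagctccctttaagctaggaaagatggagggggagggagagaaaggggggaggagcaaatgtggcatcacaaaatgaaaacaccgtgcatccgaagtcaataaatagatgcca
Itgam, chr7:128062390-128062639, + strand: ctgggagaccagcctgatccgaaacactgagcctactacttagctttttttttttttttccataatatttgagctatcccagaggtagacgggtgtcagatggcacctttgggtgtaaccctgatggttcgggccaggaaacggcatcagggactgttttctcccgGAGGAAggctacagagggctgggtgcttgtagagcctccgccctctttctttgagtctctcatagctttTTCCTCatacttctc
Lyz2, chr10:117282273-117282522, - strand: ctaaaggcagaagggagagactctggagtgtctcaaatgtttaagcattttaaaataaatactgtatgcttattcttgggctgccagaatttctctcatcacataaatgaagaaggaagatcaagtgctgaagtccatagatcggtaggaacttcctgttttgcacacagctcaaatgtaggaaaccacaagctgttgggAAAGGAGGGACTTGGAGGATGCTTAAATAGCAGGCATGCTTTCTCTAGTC
Lyz1, chr10:117292869-117293118, - strand: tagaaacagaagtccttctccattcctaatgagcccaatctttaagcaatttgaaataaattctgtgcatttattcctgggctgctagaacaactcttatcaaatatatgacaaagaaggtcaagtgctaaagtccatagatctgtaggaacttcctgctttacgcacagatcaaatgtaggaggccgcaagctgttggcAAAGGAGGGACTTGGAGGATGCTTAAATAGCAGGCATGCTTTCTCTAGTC

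Mmp13 held 1 AP-1 match, starting 35 bases before the start, and Itgam held 2 PU.1 matches, at 84 and 15 bases. Gpnmb and both lysozyme windows held none of the 3 motifs, which says only that these letters are not in these windows. Among 32851 windows of the same length, 6.75% held the AP-1 motif, 23.3% the PU.1 motif and 7.09% the MITF motif. The matches are a description and not evidence of binding. The Lyz2 and Lyz1 windows were identical at 205 of 260 aligned positions, or 78.8%, and the 50 bases directly before the start were the same in both.

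Among the genes above background, the transcripts of Gpnmb, Lyz2, Adgre1 and Itgam were higher in both db/db pools than in both db/+ pools, and that of Mmp13 was lower. Mmp12 and Mrc1 lay at background in every pool. Here background means below 7.55, the median log2 intensity over all gene features, since the deposited table marks no control spots. Levels are log2 intensities after background correction and quantile normalization, and every difference is db/db minus db/+ on that scale. An offset added to the intensities makes the folds of dim features too small. Levels of different features cannot be set against each other, because each probe binds with its own strength.

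**Figure D1:**
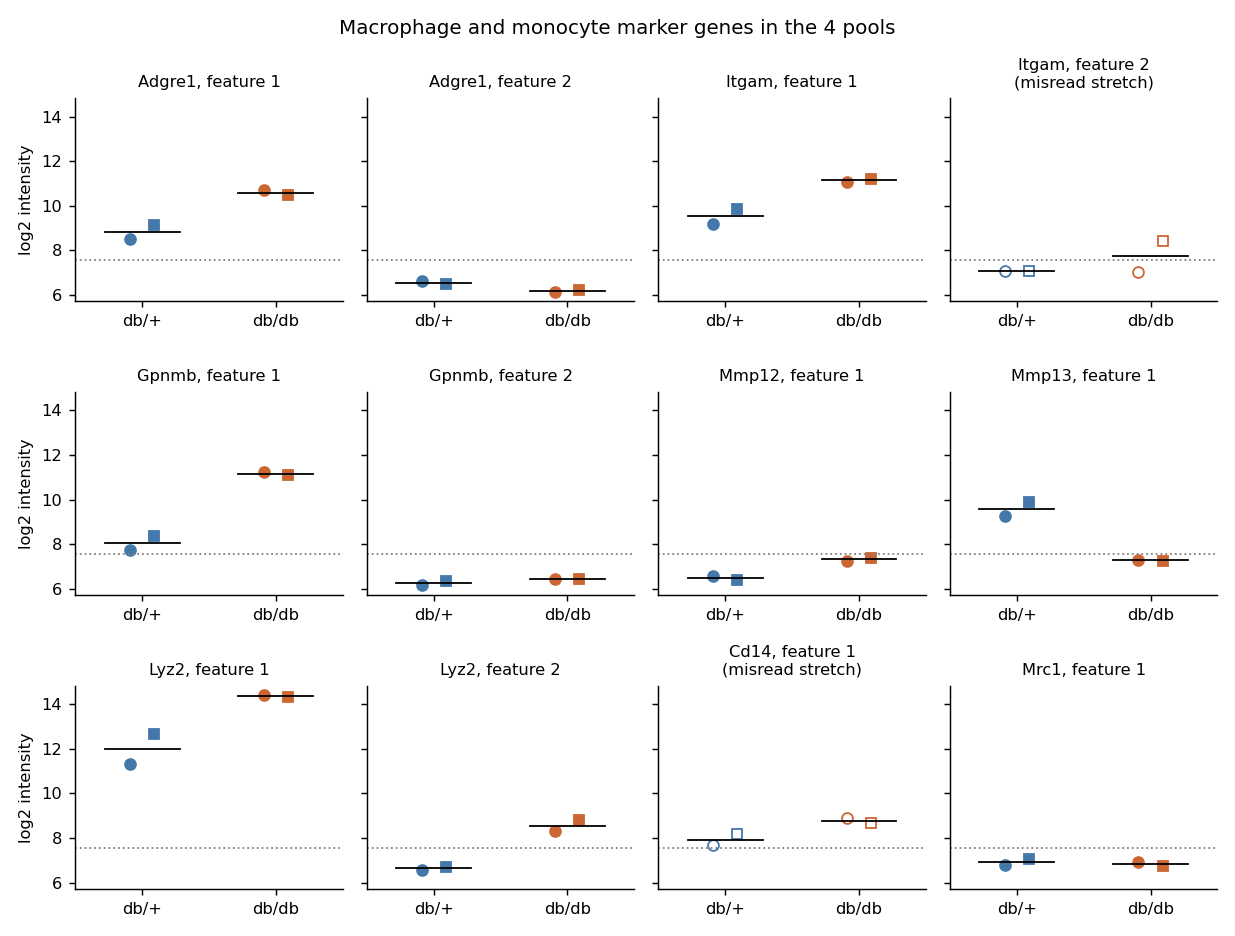
Normalized log2 intensity (vertical axis) of all 12 features in the db/+ pools (blue) and the db/db pools (orange), with pool 1 as a circle and pool 2 as a square. Short lines are group means of 2 pools, the dotted line is the background level of 7.55, and open symbols are features in misread stretches. The brighter features of Adgre1, Itgam, Gpnmb and Lyz2 sit higher in db/db and Mmp13 sits lower, at background.

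Gpnmb encodes a transmembrane glycoprotein of lysosomes and phagosomes that is abundant in lipid-laden macrophages. Its brighter feature read 7.72 in the first db/+ pool and 8.38 in the second, against 11.23 and 11.09 in the db/db pools. The raw intensities in that order were 379, 338, 1382 and 2574. The db/+ pools stood close to background and both db/db pools well above it, with 2.71 log2 units between the nearest pools. The group means were 8.05 ± 0.46 and 11.16 ± 0.10 (SD, n = 2), a difference of 3.11 or 8.62-fold. Only 9 of 9048 genes above background had a larger rise. The second Gpnmb feature, annotated to the same transcript accession, read 6.19 to 6.42 in the 4 pools and was at background in all of them.

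Lyz2 encodes the lysozyme of macrophages and neutrophils, which cleaves bacterial cell walls. Its brighter feature read 11.31 and 12.67 in db/+ and 14.42 and 14.34 in db/db. The raw intensities were 3992, 6377, 14565 and 25214, below the scanner maximum of 65535. The db/db pools were close to each other, while db/+ pool 2 stood 1.36 above db/+ pool 1. The means were 11.99 ± 0.96 and 14.38 ± 0.06 (SD, n = 2), a difference of 2.39 or 5.23-fold. Without db/+ pool 1 the difference was 1.71, and without db/+ pool 2 it was 3.07. Its dimmer feature was at background in db/+, at 6.59 and 6.72, and read 8.30 and 8.81 in db/db, at least 2.01-fold higher, where the db/+ pools are set to the background level. The 2 features were read on the same arrays, so they do not replicate each other. Lyz1, the neighbouring lysozyme gene of Paneth cells, read 9.25 and 10.90 in db/+ and 12.34 and 12.39 in db/db, a difference of 2.29 that did not pass (limma, adjusted p = 0.196 over all gene features and 0.0844 without misread stretches). Of 4 genes of the lysozyme and antimicrobial list 1 rose, Lcn2, an iron-scavenging protein of neutrophils and activated macrophages, at 7.01-fold (adjusted p = 0.0355 and 0.0124). Of all genes 0.675% were called higher over all gene features and 7.49% without misread stretches. Probes for close copies such as Lyz1 and Lyz2 may bind both transcripts, so the share of each gene in these values is uncertain.

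Adgre1 encodes an adhesion receptor used to identify mouse macrophages. Its brighter feature read 8.51 and 9.15 in db/+ and 10.69 and 10.49 in db/db. The groups did not overlap, with a gap of 1.34. The means were 8.83 ± 0.45 and 10.59 ± 0.14 (SD, n = 2), a difference of 1.76 or 3.39-fold. The dimmer feature of the same accession was at background in all pools and differed by -0.37.

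Itgam encodes the integrin CD11b, which pairs with the product of Itgb2 to form the complement receptor of myeloid cells. Its feature outside misread stretches read 9.17 and 9.88 in db/+ and 11.08 and 11.19 in db/db, with means of 9.53 ± 0.50 and 11.13 ± 0.07 (SD, n = 2). The gap between the groups was 1.21 and the difference 1.61, or 3.05-fold. The other feature, inside a misread stretch, read 7.08, 7.07 and 7.05 in the db/+ pools and db/db pool 1 and 8.43 in db/db pool 2 alone.

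Cd14, the surface protein that hands bacterial lipopolysaccharide to TLR4, was read only inside a misread stretch. The values there were 7.67 and 8.18 in db/+ and 8.91 and 8.65 in db/db, a difference of 0.86. Mrc1, the mannose receptor of tissue macrophages, read 6.78, 7.05, 6.91 and 6.75 in the same order of pools. The pools of the genotypes overlapped, and the difference of -0.08 lay at background and turned to 0.056 without db/+ pool 2.

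Mmp13 and Mmp12 encode secreted metalloproteinases, respectively a collagenase and the elastase of macrophages. Mmp13 read 9.28 and 9.88 in db/+ and 7.30 and 7.27 in db/db, with raw intensities of 1047, 930, 118 and 204. Both db/db pools were at background and both db/+ pools above it. The means were 9.58 ± 0.43 and 7.28 ± 0.02 (SD, n = 2), a difference of -2.29, and the db/db level was at least 4.07-fold lower when set to the background level. Only 7 of 9048 genes above background had a larger fall. Mmp12 read 6.59 and 6.41 in db/+ and 7.27 and 7.39 in db/db, below the background level in all pools, and no fold is given.

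In the limma fit over all gene features 336 of 33709, or 0.997%, passed an adjusted p of 0.05, with 195 (0.578%) higher and 141 (0.418%) lower. Median scaling turned that split to 126 against 270, and cyclic loess gave 58 against 91. None of the 12 marker gene features passed, and the lowest adjusted p was 0.0540. At an unadjusted limma p below 0.05 were 9 of the 12, and 6578 of all 33709 gene features. With misread stretches left out 2089 of 25467 features, or 8.2%, passed, 6.69% as higher and 1.51% as lower, among them 5 of the 10 marker gene features as higher and 1, Mmp13, as lower. Of those 6 features 3 passed with the replicate number as a block as well. The genes were chosen on this contrast, so nothing is read from these counts. Among the 5 marker genes above background, 4 had both db/db pools above both db/+ pools and 1 had both below. Over all 9048 genes above background the shares were 48.6% and 18.0%. The median difference over the 7 measured marker genes was 1.61, against 0.05 over all 16145 genes measured outside misread stretches.

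The db/+ pools differed from each other in the same direction for all 5 marker genes above background. Pool 2 stood above pool 1 by 0.60 for Mmp13, 0.64 for Adgre1, 0.66 for Gpnmb, 0.70 for Itgam and 1.36 for Lyz2. The same held for 72.3% of all genes above background, with a median of 0.15. Mmp13, which was lower in db/db, thus moved with the others between the db/+ pools and against them between the genotypes. The db/db pools differed from each other by at most 0.20 for these features, with pool 2 lower for Adgre1, Gpnmb, Mmp13 and Lyz2 and higher for Itgam. Without db/+ pool 1 the median difference of the marker genes was 1.26, and without db/+ pool 2 it was 1.96.

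**Figure D2:**
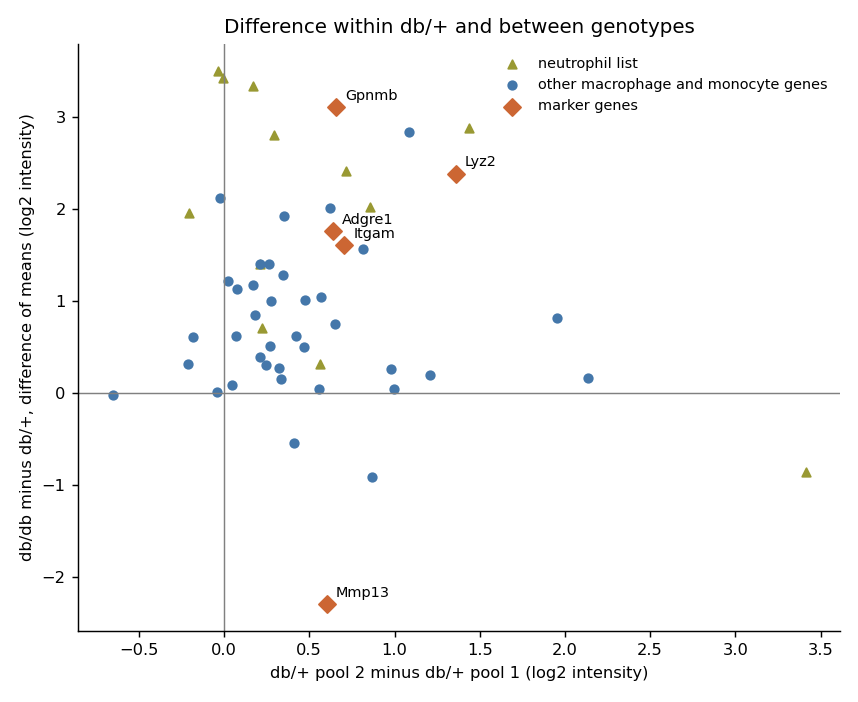
Difference between the db/+ pools (horizontal axis) against the difference between the genotype means (vertical axis), both in log2 intensity, for genes above background. The 5 marker genes (diamonds) lie right of 0, from 0.60 to 1.36, and Mmp13 alone of them lies below 0 on the vertical axis.

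Genes with the most similar profile over the 4 pools were found by Euclidean distance between log2 intensities centred on the db/+ mean. The nearest to Gpnmb were Il9 at 0.13, Myo6 at 0.16 and Il24 at 0.23. Those nearest to Lyz2 were Tmie at 0.16, Lyz1 at 0.27 and D130051D11Rik at 0.34. Itgam had Ncapg2, Tspo and Fcgr2b at 0.09 to 0.10, and Adgre1 had Hrob, Ccne1 and Bbip1 at 0.08 to 0.09. Mmp13 had Hspb1 at 0.15, H1f1 at 0.20 and Hspa1a at 0.54. With 4 pools many genes share a profile by these distances, and the lists mix myeloid genes, cytokines and cell cycle genes with genes of other kinds. Those nearest to Mmp13 were heat shock protein genes and a linker histone gene.

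Beyond the 10 genes, 61 other macrophage and monocyte genes were looked up, and 46 had a feature outside misread stretches. In the fit over all gene features 2 of the 46 rose, Slc11a1 and Abcg1, and none fell, against 0.675% of all genes rising and 0.0186% falling by the same measure. With misread stretches left out 14 of 46 were called higher and none lower, against 7.49% and 1.57% of all genes, or 9.07% in both directions. The median difference was 0.43, and 0.35 to 0.37 under the other scalings. Of the 37 genes above background, 24 had both db/db pools above both db/+ pools and 2 had both below, where 48.6% and 18.0% of all genes above background did so. The 2 calls over all gene features were lost after cyclic loess, with the replicate number as a block and without any 1 pool, each of which called 0 of 46. For each list below, the shares to set a count against are 0.675% of all genes called higher over all gene features and 7.49% without misread stretches. Counts at an unadjusted limma p below 0.05 are to be set against 3717 of all 16145 genes. These lists were written with earlier results of these data known. Where a pair of adjusted p-values follows, the limma fit with every gene feature gave the former and that without misread stretches the latter.

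Slc11a1, a metal transporter of phagosomes, rose from 7.89 and 7.87 in db/+ to 9.91 and 10.08 in db/db (adjusted p = 0.0355 and 0.0124), a 4.34-fold difference of means. The other red pulp macrophage genes included Spic, the transcription factor of that cell type, at background in db/+ and higher by at least 1.91-fold in the db/db pools (adjusted p = 0.0560 and 0.0180). Axl, a receptor for dying cells, differed by 0.62 (adjusted p = 0.0954 and 0.0406). Of the 10 genes of this list 3 were at background, among them Cd5l, a secreted protein of tissue macrophages, and Siglec1, a lectin of marginal macrophages. Hmox1, which breaks down haem, read 12.56 to 12.67 in the 4 pools.

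In the list of further macrophage genes, 2 of 15 were called higher without misread stretches, where 7.49% of all genes were, and none passed over all gene features, with 6 at an unadjusted limma p below 0.05. These were Ctss, a lysosomal protease of antigen-presenting cells, at 4.04-fold (adjusted p = 0.0776 and 0.0238), and the scavenger receptor Msr1, at background in db/+ and at least 2.18-fold higher (adjusted p = 0.0507 and 0.0156). Cd36, another scavenger receptor, differed by 1.57 (adjusted p = 0.142 and 0.0546). Of the 15 genes 4 were at background in both groups, among them C1qb, Marco and Cd163, which read between 6.45 and 7.14 in the 4 pools. C1qc, of the same complement complex as C1qb, read 7.92 and 7.27 in db/+ and 7.62 and 7.52 in db/db, around the background level, and its pools overlapped. Aif1 and Tyrobp, broad myeloid genes above background, differed by 0.04 and 0.27, and their pools overlapped.

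Of 8 monocyte genes, 4 were called higher without misread stretches, against 7.49% of all genes. None of the 8 passed over all gene features, and those 4 had an unadjusted limma p below 0.05. Plac8 read 11.44 and 12.52 in db/+ and 14.89 and 14.76 in db/db, a 7.19-fold difference (adjusted p = 0.0885 and 0.0284). Fcgr4, an IgG receptor, was at least 1.77-fold higher (adjusted p = 0.0613 and 0.0197), and Csf3r, the receptor for the neutrophil growth factor G-CSF, which also stands in the neutrophil list, differed by 1.41 (adjusted p = 0.0658 and 0.0204). Ccr2, the chemokine receptor of inflammatory monocytes, read 10.32 and 11.32 in db/+ and 10.93 and 10.80 in db/db, with the db/db pools between the db/+ pools. Of the surface antigens Ly6C, Ly6c1 was 1.80-fold higher (adjusted p = 0.0887 and 0.0325) with no overlap between the groups, while Ly6c2 differed by 0.01 and its pools overlapped.

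Genes linked to lipid-laden macrophages, where Gpnmb is abundant, were called higher in 5 of 13 cases without misread stretches, against 7.49% of all genes, and in 1 case over all gene features. Abcg1, a cholesterol exporter, rose 2.33-fold, from 12.31 and 12.34 to 13.51 and 13.58 (adjusted p = 0.0445 and 0.0156). Fabp4, a fatty acid binding protein, was 2.65-fold higher (adjusted p = 0.0636 and 0.0197), and Lgals3, galectin 3, was 2.44-fold higher (adjusted p = 0.0888 and 0.0304). Activated T cells also transcribe Lgals3. Trem2, a lipid receptor of these macrophages, was at background in all pools, and Itgax, the integrin CD11c, differed by -0.91 (adjusted p = 0.291 and 0.159).

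Lysosomal genes, the compartment of Gpnmb and Lyz2, were called higher in 5 of 17 cases without misread stretches, against 7.49% of all genes. None of the 17 passed over all gene features. At an unadjusted limma p below 0.05 were 11 of the 17, and 3717 of all 16145 genes. Lgmn, an asparaginyl protease, was 3.58-fold higher (adjusted p = 0.0655 and 0.0193), Psap, the saposin precursor, 2.98-fold (adjusted p = 0.0784 and 0.0252) and Ctsa 1.62-fold (adjusted p = 0.0709 and 0.0285). Of the MITF family, whose members drive lysosomal genes and Gpnmb, none of 4 was called in either limma fit, and 1 had an unadjusted p below 0.05. Tfec, its macrophage member, differed by 1.49 (adjusted p = 0.177 and 0.0738).

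Among 12 other metalloproteinases and their inhibitors, Mmp9, the gelatinase of neutrophils and macrophages, was at background in db/+ and rose at least 2.55-fold (adjusted p = 0.0409 and 0.0139), on all 9 of its features outside misread stretches in the second fit. Mmp25, a membrane-bound protease of neutrophils, was 2.62-fold higher (adjusted p = 0.0507 and 0.0156). Mmp10, a stromelysin, went the way of Mmp13, from 8.51 and 8.66 in db/+ to 7.81 and 7.70 in db/db, with adjusted p = 0.0776 and 0.0286. Mmp2, Mmp7, Mmp14 and Mmp19 were at background in all pools. Timp2, an inhibitor of these enzymes, differed by 0.87 (adjusted p = 0.120 and 0.0473). Over the list 1 of 12 rose in the first fit, and 3 were called higher and 1 lower in the second.

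Partners of the surface receptors were measured too. Itgb2, the partner chain of Itgam, read 13.19 and 13.18 in db/+ and 13.91 and 13.84 in db/db, a difference of 0.69 (adjusted p = 0.0754 and 0.0304). It is also expressed by T cells, where it pairs with another chain. It was the 1 gene of 4 in the list of integrin genes called in the second fit. Adgre4, the only relative of Adgre1 read outside misread stretches, was at background. Tlr4, which acts with Cd14, lay at background in db/+ and was higher in db/db by at least 1.13-fold, with adjusted p = 0.0803 and 0.0306, and 3 of 9 genes of CD14 and TLR4 signalling were called higher without misread stretches, where 7.49% of all genes were. Of 9 genes of the CSF1 axis, 1 was called higher, Csf2ra (0.63; adjusted p = 0.0998 and 0.0423), a share near that of all genes. In the same list Csf2rb differed by 1.78 (adjusted p = 0.230 and 0.108) and Cebpb by -0.36 (adjusted p = 0.177 and 0.110). Csf1, the ligand of Csf1r, differed by -0.05, and Spi1, which encodes PU.1, was at background in all pools. Of 10 measured lectin receptor genes 4 were at background, 2 rose over all gene features and 3 were called higher without misread stretches, against 0.675% and 7.49% of all genes. In that list Clec4n and Clec4d rose 4.28-fold and 3.83-fold (adjusted p = 0.0315 and 0.0124 for Clec4n, 0.0444 and 0.0146 for Clec4d), and Clec4e was called higher in the second fit alone (2.79-fold; adjusted p = 0.0945 and 0.0317).

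Genes of classical macrophage activation gave no common direction, with 1 of 9 called higher and 1 lower without misread stretches. Cd86, a costimulatory ligand, differed by 0.97 (adjusted p = 0.0660 and 0.0223) and the chemokine Ccl4, which activated T cells also secrete, by -0.71 (adjusted p = 0.0696 and 0.0282). Of 8 genes of alternative activation 2 were called higher, Arg1, which was at background in all pools, and Ccl24, at 2.26-fold (adjusted p = 0.0676 and 0.0216). Chil3, a chitinase-like protein of myeloid cells, had a large difference of 3.60 but read 8.38 and 10.42 in the db/+ pools, and it did not pass (adjusted p = 0.138 and 0.0512).

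**Figure D3:**
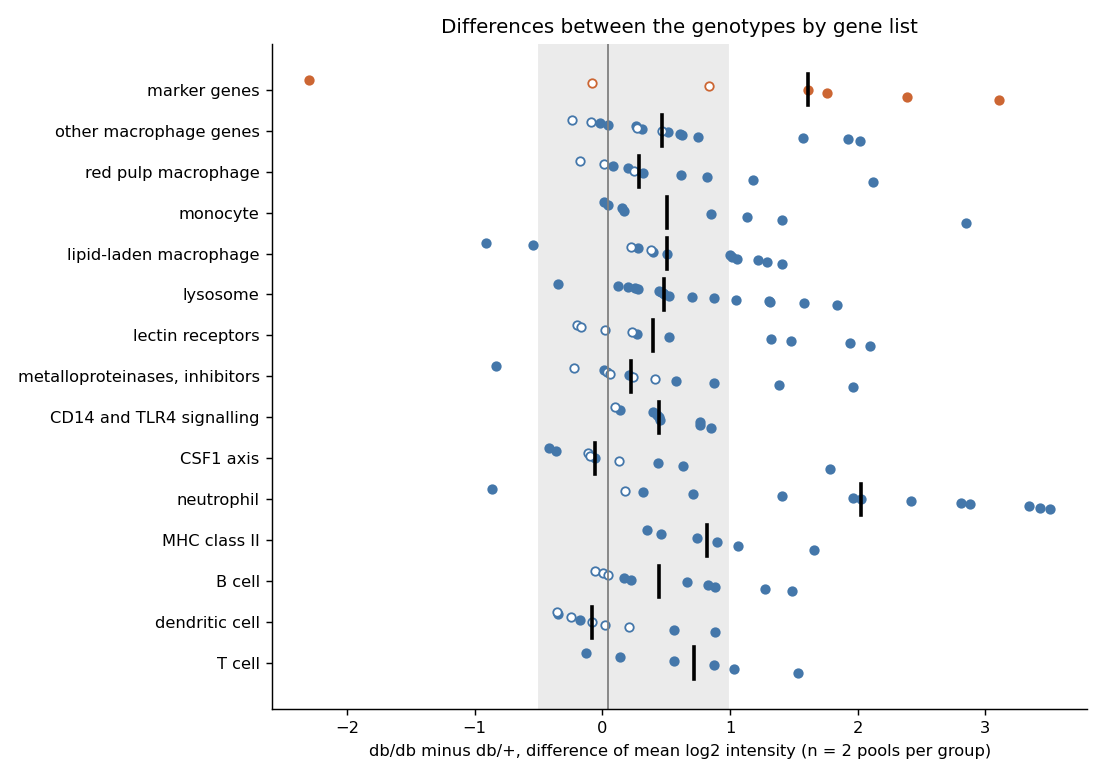
Difference of mean log2 intensity, db/db minus db/+, for each gene by list. Points are genes, open where both group means are at background, black bars are list medians, the grey line is the median of all genes at 0.05 and the band spans their 0.05 to 0.95 quantiles, -0.49 to 0.99. The marker genes have a median of 1.61 and the neutrophil list one of 2.02.

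Of the lists of other cell types, that of neutrophils had the most genes called higher, and that of B cells had fewer. The MHC class II and T cell lists had 1 call each, without misread stretches, and the dendritic cell list had none. The neutrophil list had 5 of 13 measured genes rising over all gene features and 9 called higher without misread stretches, with a median difference of 2.02. Its summed normalized intensity was 8192 and 21225 in db/+ and 69799 and 74168 in db/db. Ngp and Fpr2, a granule protein and a chemoattractant receptor of neutrophils, were higher by at least 7.50-fold and by 10.1-fold (adjusted p = 0.0290 for each over all gene features). Ltf, another granule protein, read 8.27 and 8.26 in db/+ and 11.69 and 11.70 in db/db. Mpo, the granule peroxidase, stood highest in db/+ pool 2, at 12.47 against 9.06 in pool 1 and 10.07 and 9.75 in db/db. The MHC class II list had 1 of 6 called higher without misread stretches, H2-Aa (1.06; adjusted p = 0.125 and 0.0480), with sums of 22679 and 40537 in db/+ and 59894 and 64890.0 in db/db. The B cell list had 2 of 10 rising and 4 called, with sums of 9234 and 12809 against 20496 and 14885. Cd22 and Bank1, a receptor and an adaptor of B cells, rose by 1.48 and 1.27 (adjusted p = 0.0421 and 0.0146 for Cd22, 0.0471 and 0.0156 for Bank1). Of the transcription factors of that cell type, Ebf1 differed by 0.88 (adjusted p = 0.0581 and 0.0211) and Pax5 was at background in all pools. Of 9 dendritic cell genes none was called in either fit. At an unadjusted limma p below 0.05 were 3 of the 9, and 3717 of all 16145 genes. Flt3, Zbtb46, Xcr1, Clec9a and Cd209a were at background in both group means. The sum over the 46 other macrophage and monocyte genes was 137880 and 161492 in db/+ and 252088 and 223500 in db/db. The part of neutrophils or of any other cell in the values of Itgam, Lyz2 and the other marker genes was not tested. In bulk samples, fewer cells of a type and less RNA per cell cannot be told apart.

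**Figure D4:**
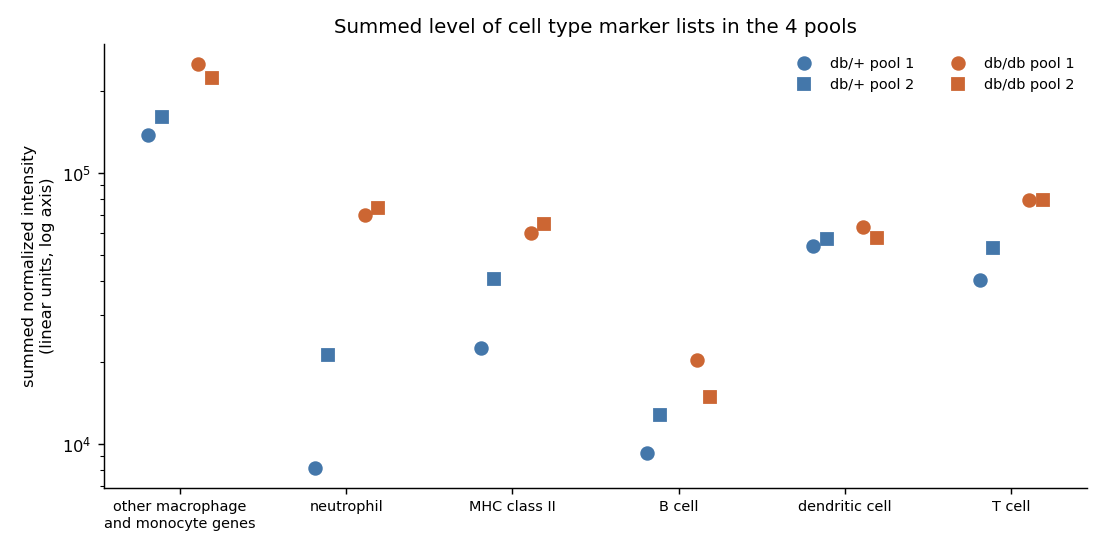
Summed normalized intensity in linear units (vertical log axis) of the measured genes of 6 lists in the 4 pools. In the neutrophil list the db/+ pools sit at 8192 and 21225 and the db/db pools at 69799 and 74168. In the dendritic cell list the db/+ pools sit at 53845 and 56942 and the db/db pools at 63414 and 57657. Bright features, such as Ccr7 and Bst2 in that list, weigh most in a sum.

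Genes that define T cells, the labelled cell type, were well above background. Cd28 read 12.79 to 13.16 and Cd4 9.67 to 9.99 across the pools, and the genotypes overlapped in both. The CD3 chains had both db/db pools above both db/+ pools: Cd3d differed by 0.88 (adjusted p = 0.135 and 0.0554), Cd3e by 1.03 (adjusted p = 0.196 and 0.0884) and Cd3g by 0.56 (adjusted p = 0.358 and 0.225). The median difference of the list was 0.72. Both db/db pools stood above both db/+ pools in 4 of its 6 genes, and in 48.6% of all genes above background. One of 6 measured T cell genes, Thy1, was called higher in db/db without misread stretches (1.53; adjusted p = 0.0627 and 0.0188). Median raw intensities of the arrays ranged from 102 in db/db pool 1 to 254 in db/+ pool 1. The Y-linked genes Eif2s3y and Kdm5d lay at background wherever the mice were db/+. Both were higher by at least 79.1-fold and 24.7-fold, respectively, in the db/db pools (adjusted p = 0.0290 for each over all gene features). Xist, the other sex-linked gene measured, went the opposite way, from 14.33 and 13.88 in db/+, a difference of -5.77 (adjusted p = 0.151 and 0.0575). The db/db pools were unlike each other in Xist, at 10.06 in pool 1 and at background in pool 2. Why they differed was not tested. Genotype and the sex of the mice thus cannot be told apart in any of these values.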

How the data were processed

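Per the file headers, the deposited intensity table holds the raw median foreground intensity of 45220 features on a linear scale. The deposited log2 table equals the quantile-normalized log2 intensities, uncorrected for background, to within 5.00e-09. Per the submitters' processing notes limma was used, and no steps are given in the sources used here. The arrays carried RNA labelled with an Alexa dye, per the labels' protocols.

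Genes are not named in the deposited tables. Annotated features were placed on the array by a grid layout inferred from the values: 2293 features of 218 accessions with at least 8 features deviated by a median of 0.138 log2 units from their accession's median, against 1.10 when the row number was used as the feature number. All gene names depend on this layout. The annotation is GEO's platform table, and list symbols were matched to it by gene ID through RefSeq's GRCm38.p6 table. Intensities were corrected by normexp (offset 50) and quantile normalized with limma 3.58.1 in R 4.3.3. The moderated limma test of db/db against db/+ was two-sided, and p-values were adjusted by the Benjamini-Hochberg method over every gene feature in the fit. Misread stretches were scan lines of 266 spots with over 5% of spots deviating on any array by more than 2 log2 units from the remaining arrays' median, 40 of 170, together with 15-spot windows that held 3 or more. They held 8242 gene features, or 24.5%. This rule looks at the same values that are compared, so the second fit is not independent of it.

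For a gene, the brightest of its features outside misread stretches was used. Named were all marker genes, up to 3 genes per list that were above background and had the smallest unadjusted p, T cell genes, and the nearest profiles of marker genes that differed by over 1 log2 unit. Not described above, though they met the list rule, are Tirap, Irak3, Fermt3, Mitf, Tfe3, Il6, Pdcd1lg2, Camp, Batf3, Cd74 and Ciita. Other genes named (C1qb, C1qc, Marco, Cd163, Aif1, Tyrobp, Cd5l, Siglec1, Hmox1, Ccr2, Ly6c1, Ly6c2, Trem2, Csf1, Spi1, Arg1, Mpo, Pax5, the dim metalloproteinases, the dendritic cell genes and the sex-linked genes) were chosen after their values were seen. The marker genes and lists were chosen with earlier results of these data known. The alternatives were no background correction, median scaling, cyclic loess, leaving out dim features, the replicate block, leaving out each pool, and other choices of feature per gene. The deviations of same-numbered pools from their group means correlated at r = -0.03 across features.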

Additional observations from a re-analysis of the deposited data

How the results depend on the processing

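Over all gene features 336 differed, against 2089 with misread stretches left out, 149 after cyclic loess and 201 without dim features, while no background correction gave 377 and median scaling 396. With the replicate number as a block limma called 0, with 5146 at an unadjusted p below 0.05, and 445 when the misread stretches were left out too. The pool numbers were not shown to pair the samples. Without any 1 pool the count was 0 to 0, with 5373 to 7565 at an unadjusted p below 0.05. Of the 46 other macrophage and monocyte genes 14 were called with misread stretches left out, and 4 with the block added. Averaging a gene's features outside those stretches gave 15. Over all gene features 2 were called, against 3 after median scaling and 1 without dim features. The count was 0 after cyclic loess (21 at an unadjusted p below 0.05), 0 with the replicate block (17), and 0 to 0 without any 1 pool (15 to 26). The cause of these changes was not tested. The median difference of the marker genes, 1.61, was 1.26 to 1.96 without 1 pool. It was 0.83 with the mean over a gene's features outside misread stretches. With the brightest feature on or off misread stretches, which adds Cd14, it was 1.23. Among single marker genes the difference of Mrc1 changed sign (-0.22 to 0.056 without 1 pool). Differences that moved by more than the spread between pools were Adgre1 at 0.70 and Gpnmb at 1.62 with that mean over features. Mmp12, at 0.65 without background correction, did so too. The low contrast of dim spots to background limits Mmp12, Mrc1 and the second features of Adgre1 and Gpnmb.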
